A study of Homo sapiens with 4 samples.

Results

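The variant forms of Polycomb repressive complex 1 (PRC1) were examined through 10 genes, chosen by symbol: the catalytic subunits RING1 and RNF2, the paired subunits RYBP and YAF2, the PCGF1-complex subunits KDM2B and BCOR, and the PCGF proteins PCGF1, PCGF3, PCGF5 and PCGF6. They were 10 of the 58174 genes in the files, and each symbol matched 1 gene. RNA-seq measured their expression in Daoy cells, a human line established from a medulloblastoma of the cerebellum, in 2 EED-knockout and 2 wild type libraries. All 4 libraries came from the same line, with no treatment given in the labels. The labels give neither the lesion in EED nor whether the knockout libraries are of 1 clone, separate clones or separate cultures, so each p-value reflects no more than library-to-library spread, part or all of which may be technical.

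PRC1 is a ubiquitin ligase that places ubiquitin on histone H2A, and PRC2, of which EED is a core subunit, places H3K27me3. RING1 or RNF2 provides the ligase in every PRC1. Canonical PRC1 carries a CBX protein that reads H3K27me3, whereas variant PRC1 carries RYBP or YAF2 in its place and reaches chromatin without that mark. The PCGF protein sets the kind of variant complex: PCGF1 works with KDM2B and BCOR, PCGF3 and PCGF5 with AUTS2 and casein kinase subunits, and PCGF6 with L3MBTL2, MGA, MAX and E2F6.

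The libraries held 19022736 and 18164045 estimated counts in EED-knockout cells and 19106382 and 17836112 in wild type cells. EED itself had 340 and 490 counts in knockout and 626 and 500 in wild type libraries, which do not overlap, and its log2 fold change of -0.49 was not called by the quasi-likelihood test in edgeR (adjusted p = 0.878). It was -0.24 without knockout 1, -0.80 without knockout 2 and -0.33 without wild type 1. Of 8 granule neuron lineage markers fixed for the line, 5 were detected well enough to be tested, and ATOH1, which defines that lineage, had 0 counts in every library. Of other cell types, the T cell gene CD3E had 0 counts in every library and PTPRC, the pan-leukocyte marker, at most 10. The mesenchymal marker genes summed to 4452 and 4189 TPM (a level per transcript length and library) in knockout and 3842 and 4057 TPM in wild type libraries. The granule lineage markers summed to 129.8 and 90.6 TPM in knockout and 80.7 and 93.2 TPM in wild type libraries, the epithelial markers to 598 and 496 TPM against 446 and 603.5 TPM, and the blood markers to 37.1 and 28.0 TPM against 19.0 and 48.8 TPM. Nearly all of the epithelial sum was KRT18, at 597 and 495 against 446 and 602.5 TPM. EPCAM had at most 0.975 TPM and CDH1 at most 0.233 TPM in any library. Nearly all of the blood sum was CD68, at 36.6 and 27.3 against 19.0 and 48.4 TPM. The glial markers summed to 8.94 and 5.29 TPM in knockout and 3.40 and 4.24 TPM in wild type libraries, the neuronal markers to 9.45 and 4.83 TPM against 6.80 and 6.89 TPM, and the endothelial markers to 4.02 and 0.354 TPM against 0.731 and 2.73 TPM. Among the neuronal markers MAP2, a dendritic cytoskeleton protein, had 34 and 19 counts in knockout and 5 and 6 in wild type libraries (log2 fold change 2.18; unadjusted p = 0.0120, edgeR adjusted p = 0.799). RBFOX3, a neuronal splicing factor, and GFAP, an astrocyte filament, were also above wild type in both knockout libraries. In CPM (counts scaled to library size) 17.8% of all genes were higher in this way. An unadjusted edgeR p under 0.05 was found for 5.90% of all genes (2.85% higher in knockout). RBFOX3 had 49 and 19 against 10 and 18 counts, and GFAP 25 and 16 against 10 and 11 counts. The other neuronal marker, SYP, overlapped between genotypes, at 184 and 113 counts in knockout and 158 and 133 in wild type libraries. The other glial markers overlapped too, OLIG2 at 124 and 21 against 36 and 41 counts and AQP4 at 4 and 7 against 0 and 31. Separation in CPM was not particular to neuronal and glial markers. The granule lineage markers MEIS1, GLI2 and PAX6, the epithelial EPCAM and the mesenchymal COL1A1 were also higher in each knockout library. The remaining tested markers overlapped between genotypes in CPM. The part of these markers in the results that follow was not tested, and in bulk RNA a smaller number of expressing cells and less RNA per cell cannot be told apart. Knockout 1 stood apart on some chromosome arms: genes of arm 4p lay at a median of 0.43 above their mean over the libraries on the log2 scale, against -0.18 in knockout 2 and -0.18 and -0.07 in the wild type libraries.

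All 10 genes passed the filter on low counts, and none passed the test between genotypes. EdgeR called 0 of the 10 at an adjusted p under 0.05, where it called 0% of all 18349 genes tested. At an unadjusted p under 0.05 it found 0 of the 10, beside 5.90% of all genes (2.85% higher and 3.05% lower in knockout). DESeq2 called 0 of the 10 at its adjusted threshold, beside 0.371% of all genes, and found 0 at an unadjusted p under 0.05, beside 5.62%. The median log2 fold change of the 10 was 0.01, as was that of all genes. The 95% interval of every one of the 10 lay within 1 log2 unit of 0, that is, within a 2-fold difference in either direction. That held for 79.1% of the genes with a mean log2 CPM (counts scaled to library size) above 3, to which all 10 belong, and for 49.6% of all genes tested. Both knockout libraries lay apart from both wild type libraries in 4 of the 10, namely above in BCOR and PCGF3 and below in RNF2 and RYBP. That share of 40.0% is near the 35.8% found over all genes, of which 17.8% lay above and 18.0% below.

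**Figure D1:**
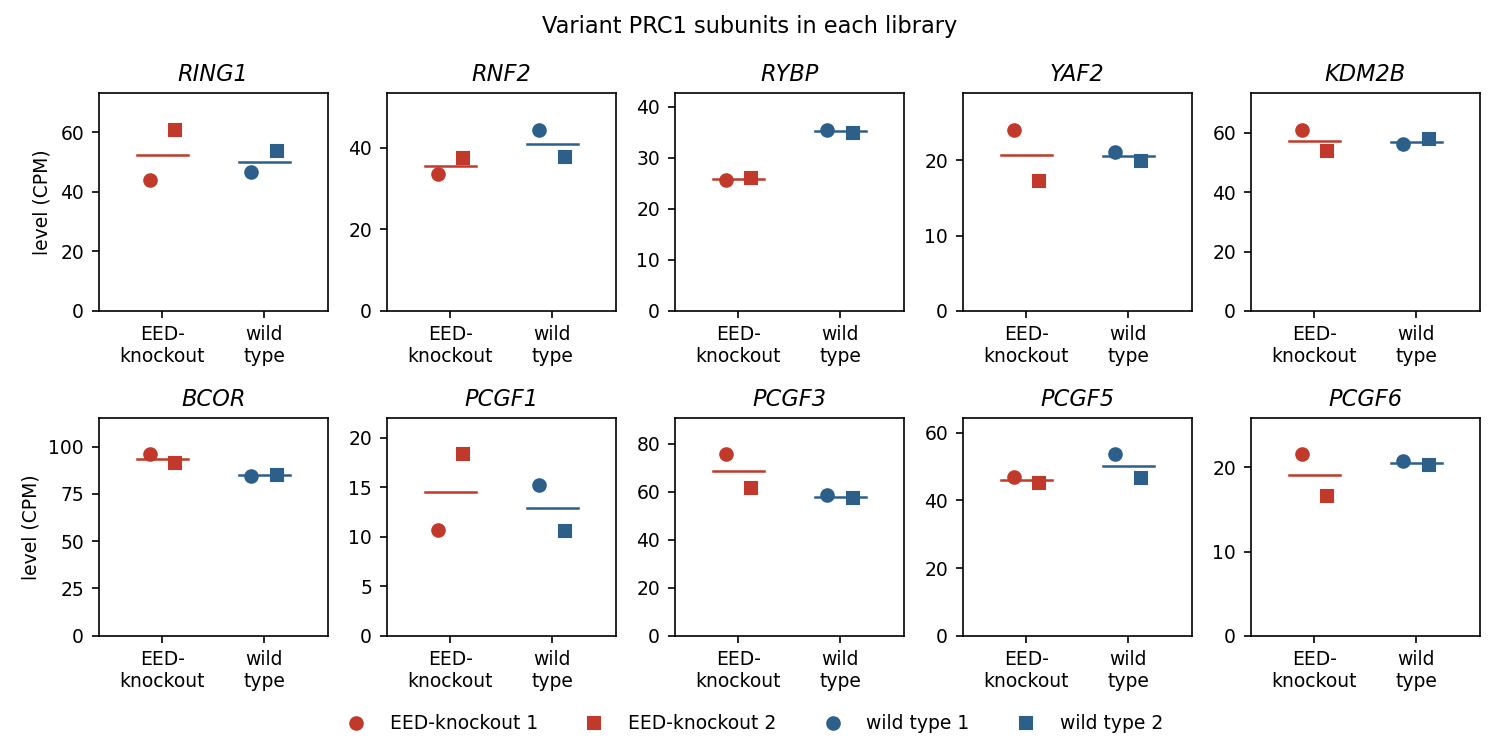
Level of each variant PRC1 subunit (CPM, y axis from 0) in the EED-knockout and wild type libraries; points are single libraries and lines the mean of 2. RYBP lies at 25.7 and 26.0 CPM in knockout libraries, below 35.5 and 34.8 CPM in wild type libraries, while most other genes overlap or lie close.

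The genes differed more from each other than between genotypes. In TPM, RING1 stood highest with a mean of 43.0 over the 4 libraries, followed by RNF2 (37.0), PCGF3 (32.1), BCOR (26.5), KDM2B (24.7), YAF2 (23.7), PCGF1 (23.5), PCGF5 (17.4), PCGF6 (14.8) and RYBP (6.38). Each neighbour in that order overlapped the next across libraries, except that RYBP, at 5.53 to 7.49 TPM, lay below PCGF6, at 12.8 to 16.3 TPM, in every library.

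The catalytic subunits come first. RING1 (ENSG00000204227; chromosome 6, 33208495 to 33212722, GRCh38) had 833 and 1139 counts in knockout and 847 and 972 in wild type libraries. Its groups overlapped, and its log2 fold change was 0.06 (95% interval -0.48 to 0.60; edgeR adjusted p = 0.985). RNF2 (chromosome 1, 185045364 to 185102608), the main ligase subunit in many cell types, had 635 and 703 counts in knockout and 806 and 680 in wild type libraries. After scaling to library size both knockout values were lower, at 33.4 and 37.6 CPM against 44.4 and 37.6 CPM in wild type, with the nearest libraries almost equal. Its log2 fold change was -0.21 (95% interval -0.69 to 0.28; edgeR adjusted p = 0.929), and in TPM the genotypes overlapped, at 36.1 and 39.8 in knockout and 38.6 and 33.7 in wild type libraries. Both genes lie on arms where knockout 1 was low, with arm medians of -0.24 for 6p and -0.27 for 1q in that library. With the arm medians removed the log2 fold changes were 0.21 for RING1 and -0.04 for RNF2. The share of RNF2 in the TPM of RNF2 and RING1 together was 48.6% and 43.6% in knockout and 51.1% and 42.5% in wild type libraries, so the libraries of each genotype differed as much as the genotypes did.

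RYBP showed the widest separation among the 10 genes. RYBP (ENSG00000163602; chromosome 3, 72371825 to 72446621), which binds the ligase and ubiquitinated H2A, had 488 and 487 counts in knockout libraries and 645 and 630 in wild type libraries. This amounted to 25.9 ± 0.228 CPM in knockout and 35.2 ± 0.469 CPM in wild type cells (SD, n = 2 each). The 2 libraries of each genotype nearly coincided, and the gap between genotypes was many times that spread. The log2 fold change of -0.44 ± 0.20 (SE; 95% interval -0.91 to 0.03) nevertheless had an unadjusted p of 0.0612 and an adjusted p of 0.851 in edgeR, whose test borrows the spread of other genes of like level. Without any one library the log2 fold change was between -0.47 and -0.43. Both knockout libraries were also lower in TPM, at 5.53 and 5.68 in knockout and 6.82 and 7.49 in wild type libraries. The files list 1 transcript for RYBP, and none of its 7185 stretches of 31 bases occurs in a transcript of another gene, so no reads had to be divided. Arm 3p had medians of -0.09 and 0.08 in knockout and -0.02 and 0.04 in wild type libraries, and with arms removed the log2 fold change was -0.43 (unadjusted p = 0.0402, not called after adjustment).

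YAF2 (chromosome 12, 42157104 to 42238349), the paralog that takes the place of RYBP, had 457 and 324 counts in knockout and 383 and 361 in wild type libraries. The knockout libraries lay on either side of the wild type libraries, and the log2 fold change was 0.01 (95% interval -0.59 to 0.61; edgeR adjusted p = 0.998). In TPM it had 36.8 and 17.6 in knockout and 20.1 and 20.2 in wild type libraries. Of the high value in knockout 1, 12.8 TPM came from the non-coding transcript YAF2-017, which had 50.1 estimated counts there, 0 in knockout 2 and 4.83 and 16.4 in wild type libraries. YAF2 held the larger share of the TPM of YAF2 and RYBP in every library, at 87.0% and 75.6% in knockout and 74.7% and 73.0% in wild type cells. Both knockout shares were above both wild type shares, although knockout 2 and wild type 1 differed by less than the wild type pair did.

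**Figure D2:**
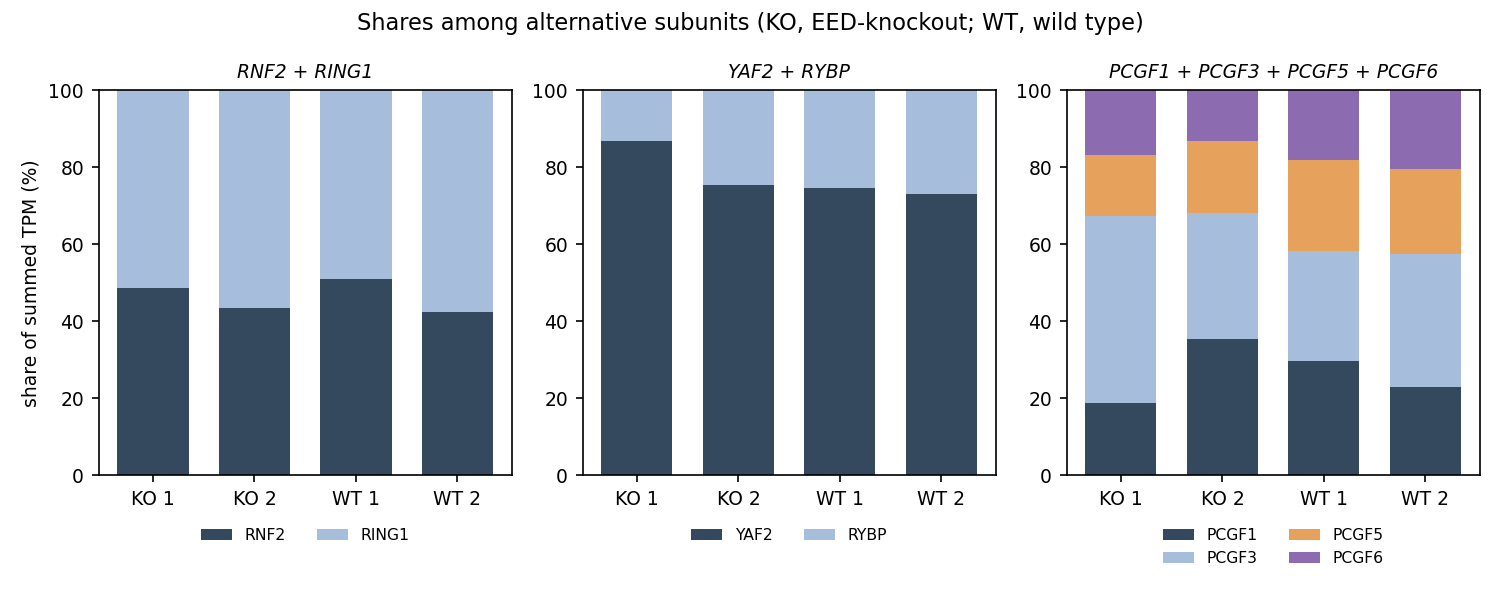
Share of summed TPM (y axis, percent) held by RNF2 and RING1, by YAF2 and RYBP, and by the 4 PCGF genes, 1 bar per library. YAF2 exceeds RYBP in each bar, and PCGF3 holds 48.4% of the PCGF sum in knockout 1 against 28.6% to 34.4% in the other libraries.

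KDM2B (chromosome 12, 121429097 to 121581015), whose zinc finger binds unmethylated CpG DNA and recruits the PCGF1 complex, had 1160 and 1006 counts in knockout and 1023 and 1047 in wild type libraries. The groups overlapped and the log2 fold change was 0.01 (95% interval -0.44 to 0.45; edgeR adjusted p = 0.998). Beneath this steady sum its transcripts were uneven. KDM2B-001, which codes for 1336 amino acids, had 137 and 184 estimated counts in knockout libraries, against about 0 in wild type 1 and 62.8 in wild type 2. KDM2B-202, with 559 codons, had 160 and 149 in knockout and 244 and 225 in wild type libraries. Both pairs were apart, in opposite directions, but neither passed edgeR over 56858 transcripts (adjusted p = 1.00 each). The share of all transcripts that lie apart is not given here, and over all genes it was 35.8% in CPM. Neither transcript has a 31-base stretch of its own, so kallisto's division of reads between them rests on shared sequence. KDM2B also overlaps RNF34 on the opposite strand, and 7.28% of its 31-base stretches occur in other genes. KDM2B-022, which starts further inside the gene and codes for 704 amino acids, had 496 and 330 counts in knockout and 527 and 427 in wild type libraries.

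BCOR (chromosome X, 40049815 to 40177329), a scaffold of the PCGF1 complex, had 1821 and 1710 counts in knockout and 1540 and 1537 in wild type libraries. Both knockout libraries were higher, at 93.6 ± 3.20 CPM against 84.9 ± 0.163 CPM in wild type (SD, n = 2 each), but edgeR did not call the difference (log2 fold change 0.14, 95% interval -0.28 to 0.56; adjusted p = 0.945). In TPM the order was mixed, at 28.7 and 23.5 in knockout and 26.7 and 27.2 in wild type libraries, with a log2 difference of -0.06 on the log2(TPM + 1) scale. A short transcript with few reads entered these TPM sums and was lower in both knockout libraries. BCOR-005, of 288 bases, had 3.63 and 1.37 TPM in knockout and 6.39 and 7.69 TPM in wild type libraries. It had at most 6.3 estimated counts in any library. The difference in TPM without BCOR-005 was not tested.

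A pair of BCOR transcripts that share their start, picked after their values were seen, lay apart in opposite directions. Genotypes lay apart in 35.8% of all genes in CPM, and the share over all transcripts is not given here. BCOR-003 had 697 and 812 estimated counts in knockout and 474 and 543 in wild type libraries, and BCOR-007 had 538 and 585 in knockout and 668 and 672 in wild type libraries. Of the counts of both, BCOR-003 held 56.4% and 58.1% in knockout and 41.5% and 44.7% in wild type libraries, so the genotypes did not overlap. Neither transcript passed edgeR (adjusted p = 1.00 each; unadjusted p = 0.0660 and 0.167), and the difference in share was not tested. Their coding sequences differ by 34 codons, because exon 8 of BCOR-003 starts 102 bases earlier. That stretch is shown because it is the sequence by which the pair can be told apart. Its reference sequence (GENCODE 29, GRCh38, chrX:40063821-40063952, minus strand) has the 102 extra bases in capitals, followed by the first 30 bases of the exon of BCOR-007 in lower case.
BCOR-003: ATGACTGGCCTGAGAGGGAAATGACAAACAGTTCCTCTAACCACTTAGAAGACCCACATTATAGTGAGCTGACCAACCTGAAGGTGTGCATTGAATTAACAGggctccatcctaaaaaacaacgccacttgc
BCOR-003 has 115 stretches of 31 bases that no other transcript holds, and BCOR-007 has 0.

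**Figure D3:**
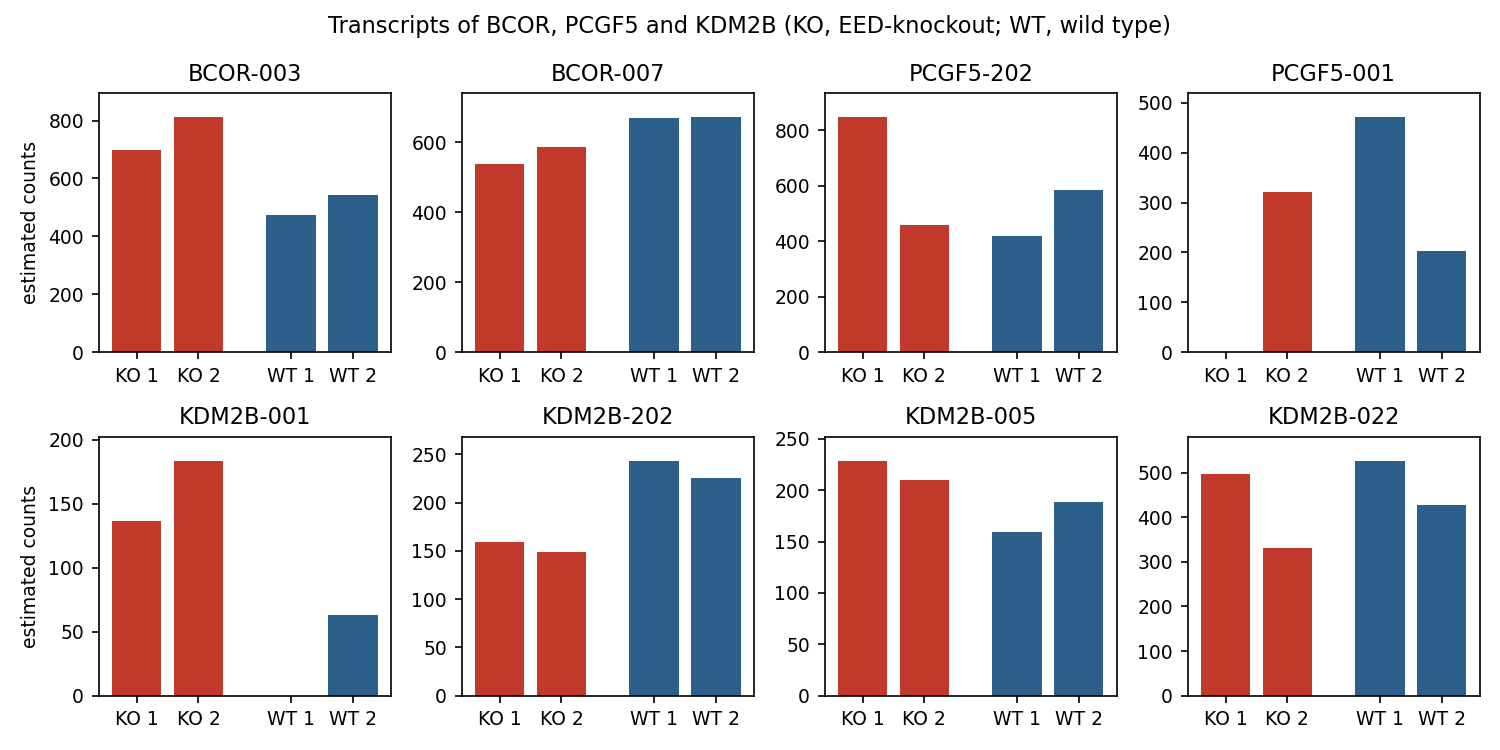
Estimated counts (y axis from 0, a scale per panel) of 8 transcripts of BCOR, PCGF5 and KDM2B, 1 bar per library. BCOR-003 is higher and BCOR-007 lower in both knockout libraries, and PCGF5-001 is at about 0 in knockout 1.

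PCGF1 (chromosome 2, 74505043 to 74508580), the PCGF protein of the KDM2B and BCOR complex, had 203 and 343 counts in knockout and 276 and 192 in wild type libraries, the fewest of the 10 genes. Replicates differed more than genotypes, and the log2 fold change of 0.17 had the widest interval of the 10 (-0.65 to 0.99; edgeR adjusted p = 0.972). It was 0.51 without knockout 1 and -0.28 without knockout 2, and 0.45 without wild type 1 and -0.07 without wild type 2.

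PCGF3 (chromosome 4, 705748 to 770640) had the largest positive difference. It had 1434 and 1152 counts in knockout libraries and 1065 and 1035 in wild type libraries, or 68.5 ± 9.87 CPM against 57.9 ± 0.979 CPM (SD, n = 2 each). Both knockout libraries were higher, knockout 2 at 61.6 CPM only a little above wild type 1 at 58.6 CPM, and edgeR did not call the difference (log2 fold change 0.24, 95% interval -0.22 to 0.71; adjusted p = 0.909). In TPM the gap was wider, at 47.3 and 31.9 in knockout and 22.8 and 26.3 in wild type libraries, with a log2 difference of 0.65 on the log2(TPM + 1) scale (limma unadjusted p = 0.0424, not called after adjustment). Transcripts with few reads added to this TPM gap. The non-coding PCGF3-010 had 4.85 and 2.25 TPM in knockout and 0 in both wild type libraries, from 3.70 and 1.57 estimated counts. PCGF3-011, which retains an intron, had 5.23 and 0.833 TPM in knockout and 0 in both wild type libraries, from 22.2 and 3.54 estimated counts. The coding PCGF3-009 had 9.59 and 3.72 TPM in knockout and 2.67 and 3.95 TPM in wild type libraries, which overlap. PCGF3 lies on arm 4p. Its own deviation from its mean was 0.27 in knockout 1, where the arm stood at 0.43, and -0.03 in knockout 2, where the arm stood at -0.18. With the arm medians removed the log2 fold change was -0.01, and it was 0.09 without knockout 1 and 0.38 without knockout 2.

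**Figure D4:**
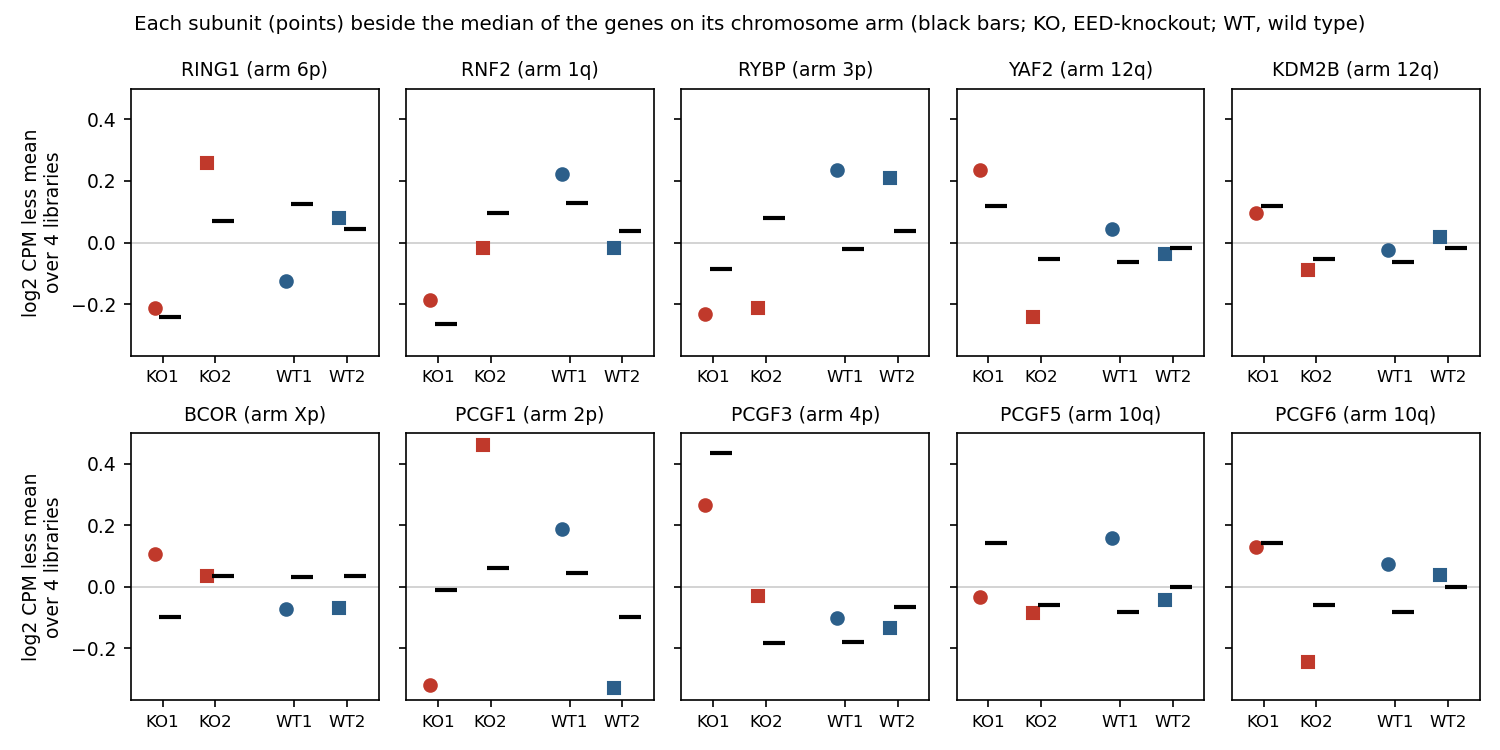
Deviation of each subunit from its mean over the 4 libraries (points, log2 CPM) beside the median deviation of the genes on its chromosome arm (black bars, genes with mean log2 CPM above 3). PCGF3 and arm 4p are both highest in knockout 1, while RYBP is low in both knockout libraries and arm 3p lies between -0.09 and 0.08.

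PCGF5 (chromosome 10, 91163012 to 91284331), which is interchangeable with PCGF3 in its complex, had 892 and 848 counts in knockout and 974 and 843 in wild type libraries. The groups overlapped, and the log2 fold change stood at -0.12 (95% interval -0.57 to 0.33; edgeR adjusted p = 0.958). The gene has an outer start at 91163012 and an inner start at 91220788 that lead to proteins of the same length, 256 amino acids. PCGF5-202, from the outer start, had 848 and 457 estimated counts in knockout and 421 and 584 in wild type libraries. PCGF5-001, from the inner start, had 0.0158 and 321 in knockout and 472 and 202 in wild type libraries. The genotypes overlapped for both, and PCGF5-001 was close to 0 in knockout 1. The non-coding PCGF5-002, which also starts on the inner side and has 624 stretches of 31 bases of its own, had 33.2 and 64.9 counts in knockout and 68.9 and 44.2 in wild type libraries. All inner transcripts together held 32.3% and 67.5% of the TPM of PCGF5 in knockout and 74.2% and 54.7% in wild type libraries, so the genotypes overlapped there too. Only 69 stretches of 31 bases belong to PCGF5-202 alone and 2 to PCGF5-001 alone. The 250 bases before each start are shown so that the pair of promoters can be compared (RefSeq, GRCh38.p14, plus strand; chr10:91162762-91163011 and chr10:91220413-91220662), with CpG dinucleotides in capitals. RefSeq places the inner start a little upstream of the start of PCGF5-001.
PCGF5 outer start: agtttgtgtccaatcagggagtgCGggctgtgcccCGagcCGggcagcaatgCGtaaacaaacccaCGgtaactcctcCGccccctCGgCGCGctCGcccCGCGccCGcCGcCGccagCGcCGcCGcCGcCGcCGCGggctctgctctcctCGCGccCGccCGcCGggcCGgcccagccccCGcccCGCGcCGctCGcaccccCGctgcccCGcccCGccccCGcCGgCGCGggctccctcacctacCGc
PCGF5 inner start: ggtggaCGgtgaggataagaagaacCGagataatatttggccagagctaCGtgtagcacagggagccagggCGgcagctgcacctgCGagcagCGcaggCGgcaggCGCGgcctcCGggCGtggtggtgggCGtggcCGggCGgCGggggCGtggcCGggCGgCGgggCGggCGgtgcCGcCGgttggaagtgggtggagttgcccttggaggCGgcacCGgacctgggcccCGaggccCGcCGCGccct
The outer window holds 41 CpG and the inner window 29, against a median of 11 over 34943 promoter windows of the same length. Fewer CpG were found in 98.3% of all windows than in the outer one and in 85.9% than in the inner one. Another RefSeq window on the inner side, not printed, lies at chr10:91219901-91220150. It holds 2 CpG, and 14.7% of all windows hold fewer.

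PCGF6 (chromosome 10, 103302796 to 103351144), which marks the complex with MGA, MAX and E2F6, had 409 and 311 counts in knockout and 377 and 366 in wild type libraries. The knockout libraries lay on either side of the wild type libraries, and the log2 fold change was -0.10 (95% interval -0.67 to 0.47; edgeR adjusted p = 0.975). Of its 31-base stretches 21.3% occur in other genes, most of them in the pseudogene PCGF7P, so its count is less certain. The processed transcript PCGF6-002 had 0 counts in both knockout libraries and 17.8 and 19.2 estimated counts in wild type libraries. Against a floor of 3 counts per library, its estimate was at least 6.21-fold lower in knockout cells. Of the 1838 stretches of 31 bases in PCGF6-002, 52 are its own, and the floor does not cover kallisto's division of reads. The coding transcript PCGF6-001 had 409 and 311 in knockout and 355 and 341 in wild type libraries. PCGF6-002 was the 1 of 41 tested transcripts of the 10 genes with an unadjusted edgeR p under 0.05 (0.00954; adjusted p = 0.823), a share of 2.44% beside 4.64% of all transcripts. EdgeR called 0 of the 41 after adjustment, beside 0% of all transcripts, and DESeq2 called 0 of them, beside 0.769% of all transcripts, with 1 at an unadjusted p under 0.05. DESeq2 gave no adjusted p to PCGF6-002, nor to BCOR-001, BCOR-008, PCGF1-003, PCGF5-003 and YAF2-008, and so could not call these.

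The 4 PCGF genes together held 97.6 and 97.4 TPM in knockout and 79.5 and 76.5 TPM in wild type libraries. The sums were higher in both knockout libraries, a difference that was not tested. In CPM PCGF3 alone lay higher in both knockout libraries, and PCGF1, PCGF5 and PCGF6 overlapped between genotypes. Transcripts with few reads added to the TPM sums. PCGF3-010 had 4.85 TPM in knockout 1 from 3.70 estimated counts. PCGF1-006 had 4.90 TPM in knockout 2 from 3.18 estimated counts. Both had 0 in the wild type libraries. PCGF3 held 48.4% and 32.8% of the sum in knockout and 28.6% and 34.4% in wild type libraries, and PCGF1 held 18.8% and 35.4% in knockout and 29.7% and 23.0% in wild type libraries. The largest share thus lay with PCGF3 in knockout 1 and with PCGF1 in knockout 2, and the shares of both overlapped between genotypes. PCGF5 held 16.0% and 18.8% in knockout and 23.7% and 22.1% in wild type libraries, and PCGF6 held 16.7% and 13.1% in knockout and 17.9% and 20.5% in wild type libraries. Both shares were lower in both knockout libraries, while the TPM of neither gene was.

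**Figure D5:**
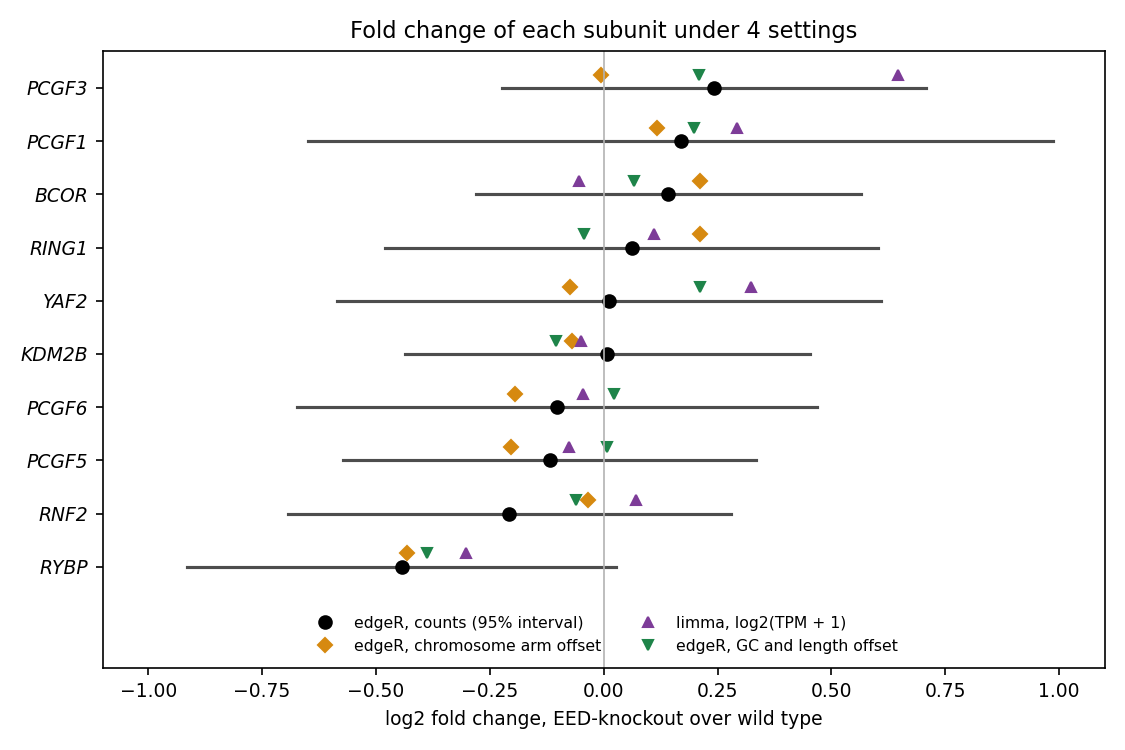
Log2 fold change (EED-knockout over wild type, x axis) of each subunit from edgeR on counts with its 95% interval, and under 3 other settings (coloured marks). RYBP stays between -0.44 and -0.30 in all 4, whereas PCGF3 ranges from -0.01 to 0.65.

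The partners of these subunits were read from a list of 19 genes, chosen with earlier results of these data known. EdgeR called 0 of 19, their median log2 fold change was -0.01, and 1 had an unadjusted p under 0.05, or 5.26% beside 5.90% of all genes. That gene was SKP1, a component of the PCGF1 complex and of cullin ubiquitin ligases, with 3303 and 3005 counts in knockout and 5130 and 4294 in wild type libraries. Both knockout libraries were lower, where 3.05% of all genes had such a p in that direction, with a log2 fold change of -0.64 ± 0.19 (SE; unadjusted p = 0.0134, edgeR adjusted p = 0.799). SKP1 lies on arm 5q, whose median was 0.37 lower in knockout than in wild type libraries on the log2 scale, and with arms removed its log2 fold change was -0.26. HDAC2, a histone deacetylase found with the PCGF6 complex, had a log2 fold change of -0.37, and L3MBTL2, a reader in that complex, and AUTS2, the activating partner of PCGF3 and PCGF5, had 0.38 and 0.37. HDAC2 was at -0.04 without wild type 1 and -0.19 without knockout 1, and AUTS2 at 0.14 without knockout 1. With arms removed HDAC2 was at -0.16 and L3MBTL2 at 0.14.

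Of 7 enzymes and readers that act on ubiquitinated H2A, edgeR called 0, and 1 had an unadjusted p under 0.05, or 14.3% beside 5.90% of all genes (3.05% lower in knockout). USP16, which removes that ubiquitin, had 1292 and 1128 counts in knockout and 1951 and 1624 in wild type libraries. Both knockout libraries were lower, with a log2 fold change of -0.62 ± 0.20 (SE; unadjusted p = 0.0165, edgeR adjusted p = 0.799). It lies on chromosome 21, whose median was on average also 0.37 lower in knockout libraries, and with arms removed its log2 fold change was -0.24. The chromosome's medians were -0.03 and -0.35 in knockout and 0.25 and 0.12 in wild type libraries. DNAJC2, a reader of the mark, had -0.36, MYSM1, another deubiquitinase, 0.15, and the reader RSF1 0.15. RSF1 was at -0.12 without knockout 1.

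Among 12 canonical PRC1 genes, the complexes most like these, edgeR called 0, and 0 had an unadjusted p under 0.05. Their median log2 fold change was 0.12, beside 0.01 for the 10 variant subunits. The groups did not overlap in 5 of 12, or 41.7%, near the 35.8% of all genes. PHC1, a polyhomeotic subunit, had the largest value at 0.67 with 544 and 219 counts in knockout and 181 and 278 in wild type libraries, which overlap. It was -0.11 without knockout 1 and 1.17 without knockout 2. CBX8 was at 0.37. CBX7 and SCML2 stood lowest, at -0.19 and -0.09, and CBX7 was at 0.06 without knockout 2 and -0.49 without knockout 1.

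Germline genes, which the PCGF6 complex is known to silence in mouse embryonic stem cells, mostly had few reads. Of 14 listed, 12 had too few counts to be tested, with at most 18 in any library. The cohesin gene STAG3 had 252 and 157 counts in knockout and 172 and 169 in wild type libraries, with a log2 fold change of 0.20. MAEL, of the germline small RNA pathway, had 9 and 11 counts in knockout and 11 and 1 in wild type libraries. Neither passed edgeR (adjusted p = 0.955 each).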

How the data were processed

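TRIZOL extracts of RNA, column-purified, went into an Illumina RNA-seq library preparation, per the labels' protocols. The deposited estimated counts and TPM values are per transcript from kallisto 0.43.1 on build hg38, per the submitters' processing notes and the file headers. The sources used here do not give the annotation release, kallisto's settings or strand handling.

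The estimated counts deposited by the authors were summed per gene and rounded, and TPM were summed. Positions came from GENCODE 29 (GRCh38), which held all 86 transcripts of the 10 genes at equal length. Genotypes were compared with edgeR 4.0.16 in R 4.3.3 (TMM, filterByExpr with minimum count 10 and minimum total 15, quasi-likelihood F test, two-sided) over all 18349 genes that passed, with Benjamini-Hochberg adjustment and a threshold of 0.05. The same fit gave the 95% intervals, and transcripts were tested in the same way. DESeq2 1.42.0 and limma 3.58.1 on log2(TPM + 1) and log2(TPM + 0.1) served as alternatives, with filters, size factors, blocks, single libraries left out, and offsets for chromosome arms or for GC content and length. Shared sequence was measured as stretches of 31 bases in GENCODE 29 transcripts.

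Genes and lists were chosen with earlier results of these data known. Named genes were the 10 subunits, EED, and, of the partner, deubiquitinase and reader, canonical PRC1 and germline lists, genes with an unadjusted p under 0.05 and the 2 largest values in each direction. The marker genes named, MAP2 among them, were picked after their values were seen. Transcripts were to be named from a 10% share of a gene's TPM, and the most telling ones, with PCGF6-002, were picked after their values were seen. Floors of 3 counts cover counting error only.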

Additional observations from a re-analysis of the deposited data

How the results depend on the processing

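None of 15 alternatives called any of the 10 genes (smallest adjusted p 0.457), and none of the 8 run on transcripts called one of theirs. RYBP lay between -0.47 and -0.30 over the 15. The count of genes called over the whole table, 0 by edgeR (1082 at an unadjusted p under 0.05), was 68 by DESeq2, and ranged from 0 to 23 when single libraries were left out (23 without knockout 1, 19 without wild type 2). The other 9 genes changed sign under at least 1 alternative, as follows in log2 fold change. On the log2(TPM + 1) and log2(TPM + 0.1) scales RNF2 was at 0.0717 and 0.0735, KDM2B at -0.0508 and -0.0532 and BCOR at -0.0551 and -0.0572. With length-scaled TPM counts KDM2B was at -0.14 and BCOR at -0.15. With the arm offset YAF2 was at -0.0746, KDM2B at -0.0692 and PCGF3 at -0.0069. With the GC content and length offset RING1 was at -0.0424, KDM2B at -0.104, PCGF5 at 0.0063 and PCGF6 at 0.0234. With limma-voom YAF2 was at -0.0064. Leaving out single libraries gave ranges of -0.20 to 0.28 for RING1, -0.24 to 0.22 for YAF2, -0.0852 to 0.0913 for KDM2B, -0.28 to 0.51 for PCGF1 and -0.30 to 0.0655 for PCGF6. For these values the cause was not tested. Each such fit takes the spread of the genotype left with 1 library from the genotype that has 2. The replicate numbers are not stated to pair libraries. With the replicate number as a block edgeR called 0 genes and YAF2 was at -0.0064. Same-numbered deviations correlated at -0.245 across 10899 genes, and with the crossed pairing, added after seeing the data, edgeR called 0 genes and YAF2 was at -0.0061. At these depths the 10 genes had 192 to 1821 counts per library, PCGF1 the fewest.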

Other observations

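By kallisto's division of reads, PCGF1 and KDM2B had much of their TPM in transcripts that do not code for the full protein. For PCGF1, the retained-intron transcript PCGF1-002 stood at 10.1 and 16.4 TPM in knockout and 12.5 and 11.2 TPM in wild type libraries. The coding transcript PCGF1-001 stood at 3.03 and 5.54 TPM in knockout and 4.05 and 2.22 TPM in wild type libraries. The non-coding form thus had the higher estimate in each library. PCGF1-002 has 0 stretches of sequence of its own, beside 1003 for PCGF1-001, so its estimate rests on shared sequence. How much coding RNA of PCGF1 was credited to PCGF1-002 was not tested. For KDM2B, transcripts starting at the outer promoter held 40.3% and 48.8% of its TPM in knockout and 37.7% and 49.7% in wild type libraries. The single transcript from the inner start, KDM2B-022, held 41.7% and 36.8% in knockout and 47.5% and 41.1% in wild type libraries. The genotypes overlapped in both.

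Promoter windows of the 10 genes, 17 in all with alternative starts, held a median of 29 CpG, against 11 over all windows. The letters CACGTG, the E-box bound by MGA and MAX, occurred in 2 of 17 windows, or 11.8% beside 6.32% of all windows. GCGGGA, searched on both strands as part of an E2F site, occurred in 3 of 17, or 17.6% beside 23.4% of all windows. CACGTG reads the same on both strands, and a match is a description of sequence, not of binding.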
